A study of Homo sapiens with 12 samples.

Results

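In RNA of HepG2, an established human liver tumour line, 917 of 46178 m6A regions (1.99%) carried the names of more than 1 gene. These shared regions were taken as all regions whose gene label listed several names, and they are described here together with the 802 genes named. N6-methyladenosine (m6A) is the most common internal mark of mRNA. Immunoprecipitated RNA (IP), enriched with an anti-m6A antibody, and RNA without that enrichment (input) were sequenced for the groups labelled toosendanin and control, with 3 IP and 3 input libraries per condition and 12 in all. Toosendanin is a plant triterpenoid known for liver toxicity, and the series asks about its toxic action on hepatoma cells. The labels give neither dose, time nor the vehicle of the control. The deposited counts were sums over the libraries of a condition, so no spread between libraries could be computed for m6A.

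Neighbouring genes can share RNA in several ways. A readthrough transcript starts at the first gene, passes its end and runs into the next one on the same strand, and it has a gene entry of its own named after both. Host genes carry microRNAs or small nucleolar RNAs inside their transcripts. Recently duplicated genes do not overlap at all, but their copies are so alike that short reads fit more than one place. In each case a read in the shared stretch does not tell which gene it came from.

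The working name of the set, overlapping genes, was only partly borne out. Among pairs of names within a label, 376 pairs overlapped on the same strand in RefSeq (GRCh38.p14), and 156 overlapped with the strand of at least 1 of them not given. A further 7 were 1 RefSeq entry under different names, and 326 lay apart. No pair with both strands given overlapped on opposite strands, although 1120 such pairs and 438 same-strand pairs exist among the 10012 placed genes of the m6A table. The library kit keeps strand, per the labels' protocols. The regions are therefore called shared regions below, and the genes of a label its partners.

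The 917 regions bore 451 different gene combinations, of which 43 were written in both orders. A label with a readthrough name was the most frequent kind, with 226 combinations and 469 regions. Copies of 1 gene family lying apart gave 66 combinations and 171 regions, and other genes lying apart gave 19 combinations and 42 regions. Other overlaps, such as GLB1 with TMPPE, gave 72 combinations and 131 regions. Small RNAs with a host gave 54 combinations and 62 regions, and 14 combinations with 42 regions could not be placed. Most regions, 820, named 2 genes, 64 named 3 and 33 named more. The longest label held 15 names, all of the clustered protocadherin alpha genes, which are spliced from many first exons to shared last exons. SMN1 with SMN2, the near-identical survival motor neuron genes, and DISC1 with TSNAX-DISC1 had 12 regions each, the highest number, while 240 combinations had 1.

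The starts of transcription show how alike partners can be. Of 418 pairs with both promoter windows in the RefSeq table, 68 had identical windows of 250 bases before to 50 after the start. In readthrough labels 42 of 179 pairs had identical windows. In 2 of these pairs and in 14 of 84 pairs of family copies, the identical windows lay at different places in the genome. Printed below are 100 bases before the start in lower case and the first 30 transcribed bases in capitals, for a readthrough gene that shares its start, the partner downstream that does not, and a pair of copies (GRCh38.p14, RefSeq, transcribed strand).
RPL17 and RPL17-C18orf32, both at chr18:49492436-49492565, minus strand: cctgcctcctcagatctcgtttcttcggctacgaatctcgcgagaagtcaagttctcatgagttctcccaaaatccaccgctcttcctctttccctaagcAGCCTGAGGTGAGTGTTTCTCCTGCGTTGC
C18orf32, at chr18:49487205-49487334, minus strand: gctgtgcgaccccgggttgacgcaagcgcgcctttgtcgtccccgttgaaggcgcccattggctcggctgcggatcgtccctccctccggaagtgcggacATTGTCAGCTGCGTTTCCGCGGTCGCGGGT
ARPIN and ARPIN-AP3S2, both at chr15:89912923-89913052, minus strand: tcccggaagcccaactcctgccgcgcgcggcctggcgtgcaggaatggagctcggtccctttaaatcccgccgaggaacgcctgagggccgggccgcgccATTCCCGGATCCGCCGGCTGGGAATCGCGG
AP3S2, at chr15:89893965-89894094, minus strand: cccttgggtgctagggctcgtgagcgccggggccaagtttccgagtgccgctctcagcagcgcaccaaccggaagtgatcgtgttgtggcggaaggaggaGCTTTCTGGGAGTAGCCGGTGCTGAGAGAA
SERF1A at chr5:70900569-70900698 and SERF1B at chr5:70025151-70025280, both plus strand: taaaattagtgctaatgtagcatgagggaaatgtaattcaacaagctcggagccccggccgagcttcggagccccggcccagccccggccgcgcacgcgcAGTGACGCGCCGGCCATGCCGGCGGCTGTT
The printed windows of RPL17 and RPL17-C18orf32 are the same stretch of the genome, and so are those of ARPIN and ARPIN-AP3S2. Those of SERF1A and SERF1B are the same letters at different places on chromosome 5.

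MicroRNA genes were named in 51 cases, of which 48 matched the RefSeq table. Of 47 pairs of a microRNA and another gene of its label, 43 overlapped, 40 of them with both strands given and the same. The other 4 lay apart: MIR4426 is on chromosome 1 and RPS27A on chromosome 2, MIR4444-2 is on chromosome 3 and HNRNPA3 on chromosome 2, and MIR4538 is on chromosome 14 while CDK3 and TEN1-CDK3 are on chromosome 17. Mature sequences follow for the microRNAs whose shared region was called for an m6A change, with the seed (bases 2 to 8) in capitals. Where in the label's genes the counted reads fall was not analysed here.
hsa-miR-4741, chr18:22933407-22933429, plus strand, host RBBP8: cGGGCUGUccggaggggucggcu
hsa-miR-1825, chr20:32237830-32237847, plus strand, host POFUT1: uCCAGUGCccuccucucc
hsa-miR-3655, chr5:140647844-140647864, plus strand, host IK: gCUUGUCGcugcgguguugcu
hsa-miR-1181, chr19:10403505-10403525, minus strand, host CDC37: cCGUCGCCgccacccgagccg
hsa-miR-4444, chr2:177212768-177212785, plus strand, within HNRNPA3, with the same letters in the MIR4444-2 copy at chr3:75214518-75214535: cUCGAGUUggaagaggcg
hsa-miR-4426, chr1:192716333-192716349, plus strand, in a label with RPS27A: gAAGAUGGacguacuuu
No seed occurs more than once among these 6 microRNAs, and 54 different seeds occur among the 60 mature sequences listed for the labels. The letters GGAC, the core of the m6A consensus, were searched on the transcribed strand of the hairpins. They occurred in 22 of the 43 hairpins of shared labels (51.2%, median length 78 bases), or in 19 of 40 (47.5%) with the 4 MIR941 copies of a single label counted as 1, and in 427 of all 1562 hairpins of the table (27.3%, median length 80 bases). Such a match is a description of the letters and not a mapped site.

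Shared regions held 5.08% of the control IP counts and 3.96% of the control input counts of all regions. Toosendanin libraries had 4.15% of IP and 3.50% of input counts in them. A single region labelled IGF2 and INS-IGF2 made up 45.9% of the shared control IP counts, and without it the shared regions' part of control IP was 2.82%. IGF2 encodes a fetal growth factor that liver tumour lines often express, and INS-IGF2 is the readthrough from the insulin gene, listed at a mean of 0 in the authors' deposited table. That region's summed counts were 986181 IP and 400128 input in control, and 405612 IP and 164695 input after toosendanin. Median input per shared region was 153 counts in control and 116 after toosendanin, against 125 and 92 for regions of 1 gene.

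Enrichment was taken as the log2 ratio of IP to input, each scaled to the total of its column. Over the 602 shared regions with at least 50 input counts in both conditions its median was -0.25 in control and -0.19 after toosendanin, and over 28551 regions of 1 gene it was -0.26 and -0.20. Scaled IP exceeded scaled input by at least 2-fold in control in 33 shared regions (5.48%) and in 1285 regions of 1 gene (4.50%). Most shared regions thus lay below the IP to input ratio of the column totals, as did the others. A value below 0 is relative to that ratio and does not mean fewer IP than input counts. Over all shared regions the unscaled control medians were 163 IP and 153 input counts. The region of FRG1CP and FRG1FP, a pair of pseudogenes, had the highest control enrichment, at 1.72 with 411 IP and 100 input counts. CCPG1 with its readthrough DNAAF4-CCPG1 followed at 1.55 with 17521 IP and 4833 input counts, and ANKHD1 with ANKHD1-EIF4EBP3 at 1.50. CCPG1 encodes a receptor for autophagy of the endoplasmic reticulum. Lowest were the ribosomal RNA precursors, at -2.03 for the label that names RNA28SN1 first and at -1.88 for RNA45SN1 to RNA45SN5, and RPS10 with RPS10-NUDT3 at -1.90. Control and toosendanin enrichment correlated across shared regions with a Pearson r of 0.89 and across regions of 1 gene with 0.91, a description over regions that share libraries.

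**Figure D1:**
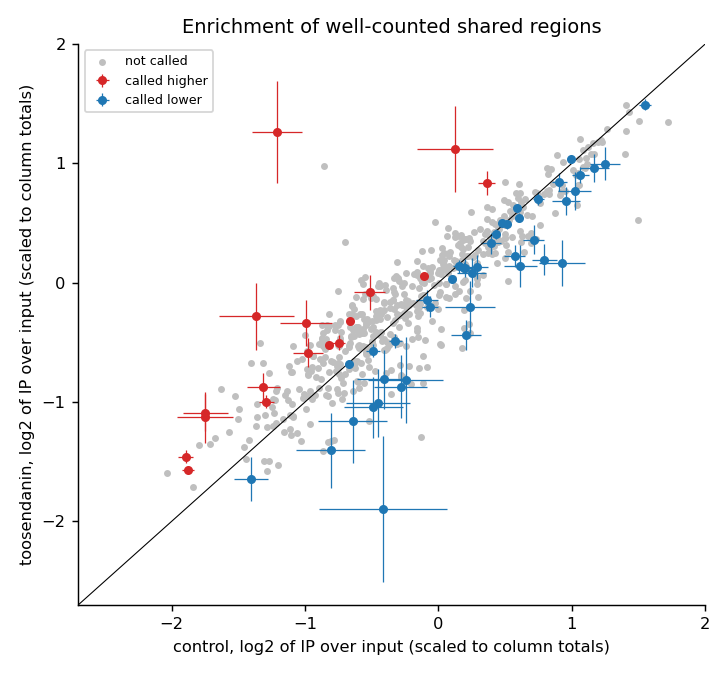
Enrichment of the 602 well-counted shared regions in control (x axis) and after toosendanin (y axis), as log2 of IP over input scaled to column totals. Points are regions, bars on the called ones are 95% intervals for counting error, red and blue mark regions called higher and lower in the authors' deposited table, and the diagonal line is equality. Most called-higher points lie left of 0 on the control axis, with the region of GTF2H2 and GTF2H2B far above the diagonal.

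Of 516 shared regions with an FDR in the authors' deposited table, 60 were called at an FDR under 0.05 (11.6%), 18 higher after toosendanin (3.49%) and 42 lower (8.14%). In all regions the authors' deposited table called 8.95%, with 2.71% higher and 6.24% lower. The p-values behind these calls hold counting error only, so calls rise with depth. At 1000 to 5000 control input counts 18.8% of shared regions were called and 18.3% of regions of 1 gene, and at 5000 or more 53.8% and 50.8%. At 200 to 1000 counts the shares were 6.13% and 5.72%, at 50 to 200 counts 4.17% (4 of 96 shared regions) and 2.70%, and under 50 counts 0 of 19 shared regions and 1.60%. Scaled to column totals instead, 53 shared regions were called higher and 16 lower. Under that scaling the higher share of calls went from 30% to 76.8% in shared regions and from 30.3% to 76.2% in all. Centring on the median of well-counted regions gave 36 higher and 23 lower. Both of these scalings move every region upward, so that by construction only lower calls could be lost by them. The 16 lower calls left under column totals were also called lower in the other scalings. With the counting error widened 1.53 times to match the spread over all regions, 20 of the 60 calls were left, 6 higher and 14 lower. Among the calls named below, the widened error ended those of GLB1 with TMPPE, MIR4741 with RBBP8, the TBC1D3 label, the 5-name NBPF label, UGT1A1 with UGT1A3, RPL36A, POFUT1 and RPS27A. It also ended both calls of PEG3 with ZIM2, both of CPNE1 with RBM12, the smaller one of CDK11A with CDK11B and the smaller one of IGF2. For NEDD8 with NEDD8-MDP1 it ended the call of the region with 10914 control input counts.

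**Figure D2:**
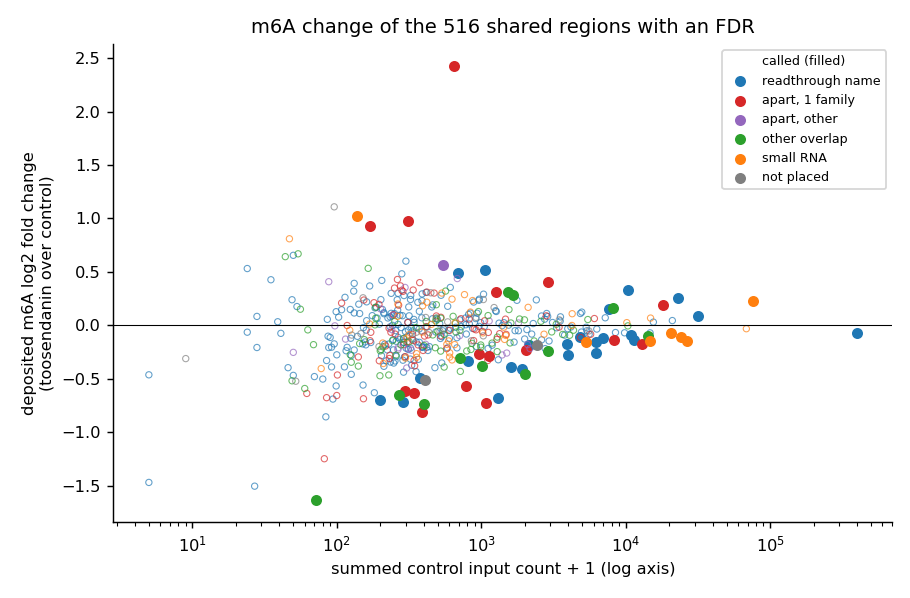
Log2 fold change of m6A in the authors' deposited table (y axis) against summed control input count plus 1 (x axis, log scale) for the 516 shared regions with an FDR. Filled points are the 60 called regions, open ones were not called, and colours give the kind of label. Called regions with few input counts are far from 0, and those at the right end of the axis lie close to 0.

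A region called higher was in most cases one with a low IP to input ratio in control. In control 16 of the 18 regions called higher had a ratio below the column totals', with a median enrichment of -0.99 that was -0.42 after toosendanin. Of the 42 called lower, 14 lay below, and the median was 0.27 in control and 0.13 after toosendanin. Regions of 1 gene had the same pattern, with 613 of 651 called-higher and 498 of 1498 called-lower regions below. Of all well-counted regions, 38.9% of the shared and 37.0% of those of 1 gene lay above in control. A call compares the toosendanin ratio with this same control ratio. Choosing regions called higher therefore favours low control ratios, and choosing those called lower favours high ones. How much of the pattern follows from that choice was not tested. When the regions enriched in control alone were adjusted, 32 shared regions were called, 2 higher and 30 lower. That limit uses the same control ratio. By construction it left out the 16 higher and 14 lower calls that lay below.

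Copies of gene families lying apart gave 16 calls among 85 regions with an FDR (18.8%, against 8.95% over all regions and not matched for depth), 6 higher and 10 lower. GTF2H2 encodes a subunit of the transcription and repair factor TFIIH, and GTF2H2B is its copy. Their region had 347 IP and 647 input counts in control and 168 IP and 58 input counts after toosendanin. The ratio turned from below to above that of the totals, and the authors' deposited table lists a log2 fold change of 2.43 with an FDR of 1.48e-21. The same genes' other region, with 716 and 322 input counts, was listed there at -0.31 and not called. GTF2H2 expression was listed at -0.43 ± 0.11 (standard error, here and below) on the log2 scale in the authors' deposited table, called at an adjusted p of 0.000657 (DESeq2). For 2 regions labelled GTF2H2B alone, the summed counts gave a log2 change of 0.17, and the shared region was 2.27 above that (95% interval for counting error 1.50 to 3.03).

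SEC22B, a vesicle SNARE protein, shared a region with its pseudogenes SEC22B2P and SEC22B3P that had 909 IP and 386 input counts in control and 494 IP and 367 input counts after toosendanin. IP counts fell by more than input counts, and the authors' deposited table lists -0.81 with an FDR of 8.95e-08. SERF1A and SERF1B, whose start sites are printed above, had 4 well-counted regions. The called one had 1483 IP and 782 input counts in control and 600 IP and 453 input counts after toosendanin, and the authors' deposited table lists it at -0.57. The other 3 stood between -0.10 and 0.06 in that authors' deposited table and were not called.

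NBPF genes, a primate family with many repeated domains, named 55 shared regions, of which 30 had enough input. By the FDR of the authors' deposited table, 1 was called higher and 2 lower (8.95% of all regions with an FDR were called), and the well-counted ones ranged from -1.06 to 1.76. The one at 1.76, of NBPF14, NBPF25P and NBPF26, had no FDR listed and so could not be called. It had 146 IP and 214 input counts in control and 194 IP and 82 input counts after toosendanin. The region of NBPF19 and NBPF26, with 1545 IP and 1082 input counts in control and 951 IP and 1074 input counts after toosendanin, was listed at -0.72. A label of 5 NBPF names starting with NBPF10 had 227 IP and 168 input counts in control and 220 IP and 84 input counts after toosendanin, listed at 0.93 in the authors' deposited table. Members of this family thus stood on both sides of 0. An 11-gene label of TBC1D3 copies stood at 0.98 in the authors' deposited table, from 149 IP and 310 input counts in control and 203 IP and 206 input counts after toosendanin.

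The precursor of ribosomal RNA, RNA45SN1 to RNA45SN5, had 18103 input counts in control and 27525 after toosendanin while the summed input of all regions was smaller after toosendanin. Its IP counts were 6104 and 11144, and the authors' deposited table lists 0.19 for m6A, called higher. The 2 well-counted regions that name RNA28SN1 to RNA28SN5 as well went different ways. In one, input went from 420 to 979 counts, listed at 0.31 in the authors' deposited table. In the other it went from 1110 to 693 counts, listed at -0.33 there, and neither was called. SMN1 and SMN2 had 12 well-counted regions between -0.74 and 0.43 in the authors' deposited table, and none of the 9 with an FDR was called. CDK11A and CDK11B, paired kinases of the cyclin-dependent family, had a called region listed at -0.18 and another at -0.14 in the authors' deposited table. Neither was called when scaled to column totals.

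Among other overlaps 11 of 81 regions with an FDR were called (13.6%, against 8.95% over all regions), 3 higher and 8 lower. GLB1 encodes lysosomal beta-galactosidase, and TMPPE is a gene that overlaps it. Their region had 66 IP and 71 input counts in control and 28 IP and 88 input counts after toosendanin, the most negative m6A change among the called shared regions, at -1.64 with an FDR of 0.00132 in the authors' deposited table. Both genes were called higher in expression in the authors' deposited table, GLB1 by 0.49 ± 0.11 and TMPPE by 1.48 ± 0.28 on the log2 scale. Besides this region, only GTF2H2 with GTF2H2B and MIR4741 with RBBP8 were called with a change of at least 2-fold.

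UGT1A genes encode enzymes that attach glucuronic acid to bilirubin and drugs, from separate first exons joined to shared last exons. A region labelled with 9 of them had 3685 IP and 2001 input counts in control and 2198 IP and 1569 input counts after toosendanin, and the authors' deposited table lists -0.45 with an FDR of 5.81e-11. The region of UGT1A1 and UGT1A3 alone had 759 IP and 1521 input counts in control and 906 IP and 1388 input counts after toosendanin, listed there at 0.32 with an FDR of 0.00812. The region shared by 9 genes had IP above input and lost part of that, while the region of 2 genes had IP below input and came nearer to it. A region of UGT1A1 only gave 0.03 from the summed counts. The 2-gene region differed from it by 0.36 (95% interval 0.06 to 0.65) and the 9-gene region by -0.43 (95% interval -0.69 to -0.16). UGT1A1 expression was 0.48 ± 0.11 higher in the authors' deposited table, with a mean normalized count of 3886 against 65.1 for UGT1A3.

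PEG3 is an imprinted zinc finger gene expressed from the paternal copy, and ZIM2 shares its first exons. Their 8 regions were the only ones of a combination with a call in each direction. The region with 6031 IP and 8179 input counts in control and 3677 IP and 4350 input counts after toosendanin was listed 0.16 higher, and the one with 23826 IP and 14249 input counts in control and 12711 IP and 8000 input counts after toosendanin at -0.10, in the authors' deposited table. The lower call did not hold when scaled to column totals. CPNE1, a calcium-dependent membrane-binding protein, and RBM12, an RNA-binding protein, start from identical promoter windows. Their larger region was listed at -0.24 and the smaller at -0.65 in the authors' deposited table, both called lower, the smaller one not under column totals, and 2 regions labelled CPNE1 alone gave 0.29 from summed counts.

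Readthrough labels had 23 calls among 254 regions with an FDR (9.06%, against 8.95% over all regions), 6 higher and 17 lower. PABPN1 encodes the nuclear poly(A)-binding protein that lengthens the poly(A) tail, and BCL2L2-PABPN1 is its readthrough from the apoptosis regulator BCL2L2. The called region of this label had 2827 IP and 1316 input counts in control and 1124 IP and 821 input counts after toosendanin, listed at -0.68 with an FDR of 3.31e-14 in the authors' deposited table. The other, with 14768 and 8533 input counts, was listed at -0.07 and not called. The 4 regions labelled PABPN1 alone gave 0.08 from summed counts, and the called shared region differed from them by -0.73 (95% interval -0.90 to -0.56). The shift was thus seen in 1 of the regions of these genes.

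RPS10, a small ribosomal subunit protein, reads through into NUDT3, a phosphohydrolase. The region of RPS10 and RPS10-NUDT3 had 3484 IP and 10463 input counts in control and 3976 IP and 9110 input counts after toosendanin and was listed at 0.33, with an FDR of 1.95e-14, in the authors' deposited table. The region that names NUDT3 as well had 6198 IP and 6253 input counts in control and 3872 IP and 4528 input counts after toosendanin and was listed at -0.25 there. Regions of the same readthrough thus differed in sign under all 3 scalings. RPL17, RPL17-C18orf32 and C18orf32 shared a region listed at 0.26 with an FDR of 1.78e-33 in the authors' deposited table. RPL36A with RPL36A-HNRNPH2 and HNRNPH2 was listed at 0.08 there. All 4 of these regions had a control enrichment below 0.

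For the large IGF2 region described above, the authors' deposited table lists -0.07 with an FDR of 1.45e-38. With 400128 control input counts even so small a shift passed the test, and scaled to column totals it was 0.0464, in the other direction. A smaller IGF2 region, with 756 IP and 1616 input counts in control and 329 IP and 860 input counts after toosendanin, was listed at -0.39 there and was not called under column totals.

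Small RNA labels had 7 calls among 47 regions with an FDR (14.9%, against 8.95% over all regions), 2 higher and 5 lower. Their regions were deeper, with a median of 406 control input counts against 125 for regions of 1 gene. TPT1 encodes a translationally controlled tumour protein, and SNORA31 is a small nucleolar RNA in its intron. Their region had 53406 IP and 75964 input counts in control and 58835 IP and 70312 input counts after toosendanin, listed at 0.23 with an FDR of 1.08e-87 in the authors' deposited table, the smallest among shared regions. The 5 regions labelled TPT1 alone gave -0.15 from summed counts, and the shared region exceeded them by 0.40 (95% interval 0.35 to 0.46). RBBP8, a DNA end resection factor, shared with MIR4741 a region of 97 IP and 137 input counts in control and 72 IP and 47 input counts after toosendanin, listed at 1.02 with an FDR of 0.0293 in the authors' deposited table. The 7 regions labelled RBBP8 alone gave 0.08 from summed counts.

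POFUT1 with MIR1825, HNRNPA3 with the MIR4444 copies, IK with MIR3655, CDC37 with MIR1181 and RPS27A with MIR4426 were listed between -0.16 and -0.07 in the authors' deposited table, from 5356 to 26480 control input counts. These 5 regions were called lower, and only that of HNRNPA3 held under all 3 scalings. CDC37, a kinase cochaperone, went to 0.0219 when scaled to column totals. HSP90B1, an endoplasmic reticulum chaperone, shared with MIR3652 a region of 68509 control input counts that was not called.

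**Figure D3:**
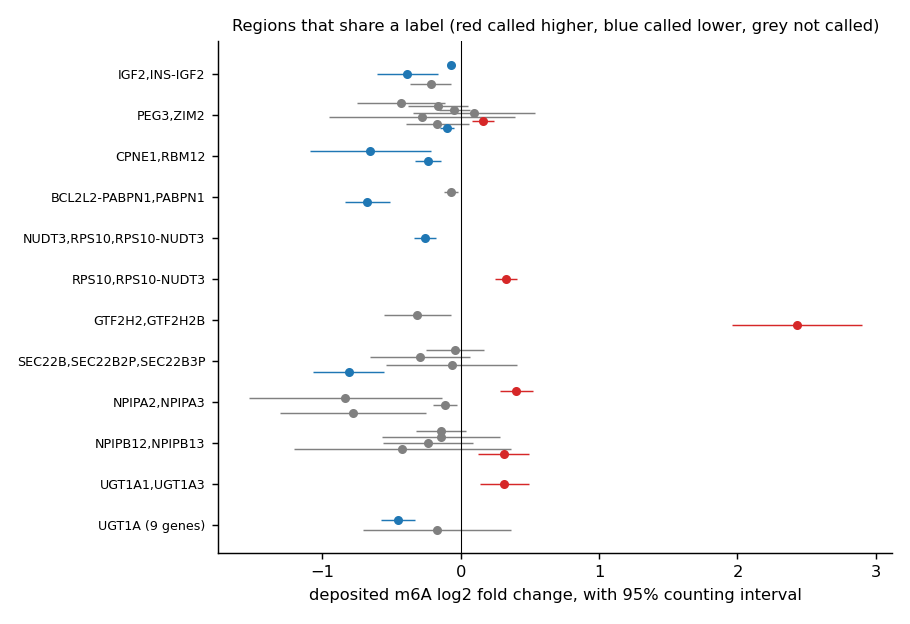
Log2 fold change of m6A in the authors' deposited table (x axis) for the well-counted regions of 12 gene combinations (y axis). Points are regions, bars are 95% intervals for counting error, red and blue mark regions called higher and lower, and grey marks regions not called. Regions of PEG3 with ZIM2, of GTF2H2 with GTF2H2B and of the RPS10 and UGT1A labels lie on both sides of 0.

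Regions within a label were spread, and part of that spread is counting error. In 134 combinations with at least 2 well-counted regions, the median range of the m6A log2 fold change was 0.33 and that of control enrichment 0.65. The differences from regions of a single partner given above are a description, since the shared regions were chosen for their calls.

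Expression was looked up for all partners. Of the 802 partners in the authors' deposited table, 56 were listed at 0 and 664 had an adjusted p, of which 84 were higher and 82 lower (25.0%). Over all genes the authors' deposited table called 31.4%, with 15.7% in each direction, and the difference between these shares was not tested. Among genes with a mean normalized count of 100 to 1000, 23.0% of partners and 33.1% of other genes were called, at 1000 or more 46.9% and 50.1%, and at 10 to 100 14.0% and 15.2%. The labels do not tell whether replicate libraries are separate cultures, so these p-values may measure technical spread.

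Partners had larger errors than other genes of like level. The standard error in the authors' deposited table was set against the median of the 201 other genes nearest in mean. It was at least 3 times that in 77 of 592 partners (13.0%) and in 230 of 13664 other genes (1.68%), with a median ratio of 1.21 for partners. By kind, the share was 36% for labels not placed (9 of 25 genes), 18.1% for family copies, 14.5% for readthrough labels, 8.73% for other overlaps, 3.64% for small RNA labels and 0% for other genes lying apart (0 of 35). It was 21.7% for readthrough names. IGF2, at a mean of 29166, had a standard error of 0.40 in the authors' deposited table, 6.94 times that of like genes, and its change of -0.26 was not called. Input of the large IGF2 region went from 400128 counts in control to 164695 after toosendanin. The median log2 ratio of summed input over labels was -0.48, and the difference between these readings was not tested. CBS, the first enzyme of transsulfuration, and its copy CBSL had 7.81 and 9.62 times the usual error. SNURF and SNRPN, which share an imprinted transcript, had 8.63 and 6.24 times. SNURF was listed at -0.48 ± 0.64 and SNRPN at 1.29 ± 0.59 in the authors' deposited table, neither called. HYPK and its readthrough SERF2-C15ORF63 stood at 1.08 ± 0.51 and -1.24 ± 0.52 there, also not called. In these pairs the partners' values lay on opposite sides of 0.

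**Figure D4:**
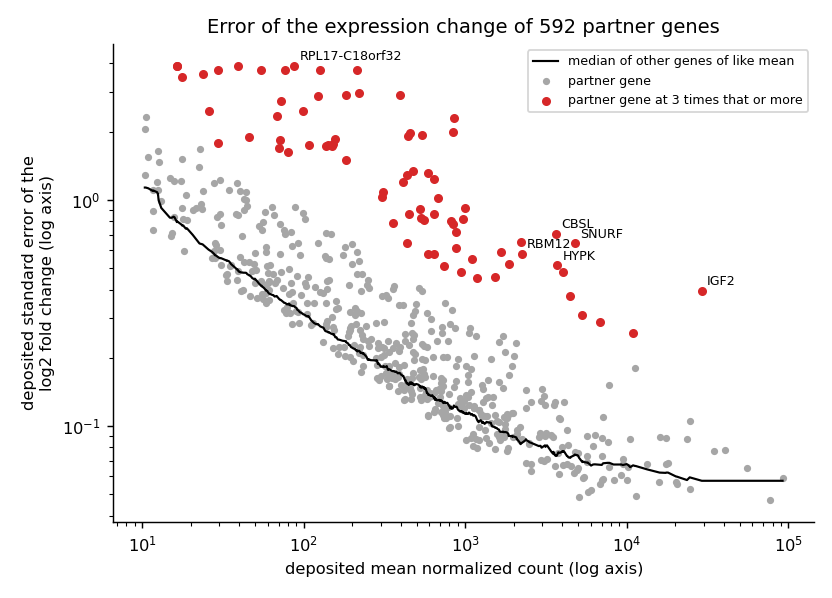
Standard error of the log2 expression change in the authors' deposited table (y axis, log scale) against mean normalized count (x axis, log scale) for 592 partner genes. Points are genes, red marks those at 3 or more times the median of other genes of like mean, and the black line is that median. The 77 red points lie well above the line at every level, IGF2 among them at the far right.

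Readthrough genes were mostly low. The 139 readthrough names had a median mean normalized count of 48.7 and the other genes of their labels 538.1, and 17 were listed at 0. Of 98 with an adjusted p in the authors' deposited table, 4 were higher and 11 lower, and of 210 other genes of those labels 34 were higher and 24 lower. Over all genes 15.7% were higher and 15.7% lower. Of genes that were not partners, 15.2% were called at means of 10 to 100 and 33.1% at 100 to 1000. The lower readthrough names included ARPC4-TTLL3 at -6.80 ± 0.93, RBM14-RBM4 at -8.13 ± 1.78 and PIR-FIGF at -5.93 ± 1.47 in the authors' deposited table, at means of 63.8, 29.4 and 12.7. KLRC4-KLRK1 was listed 2.71 ± 0.91 higher and PTGES3L-AARSD1 at -2.17 ± 0.74 in the authors' deposited table. In 46 of 226 readthrough labels the readthrough name held most counts, as did APOC4-APOC2, with a mean of 3120 against 2075 for APOC2, an activator of lipoprotein lipase. Both were called higher, by 0.37 ± 0.12 and 1.06 ± 0.23 in the authors' deposited table.

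A single partner usually held nearly all counts. It had at least 90% of the label's mean normalized counts in 254 of 450 combinations, and the median was 93.2%. In small RNA labels the host held a median of 99.9%. Of 60 small RNA names 52 had a mean under 10, and 1 was called, MIR3652, at -0.71 ± 0.09 with a mean of 6345 in the authors' deposited table, beside its host HSP90B1 at -0.52 ± 0.06. Of 48 host genes with an adjusted p in the authors' deposited table, 10 were higher and 16 lower. Of other genes with a mean of 1000 or more 50.1% were called, and the hosts' median mean was 2554.5. STMN1, a microtubule destabiliser and host of MIR3917, stood at -1.23 ± 0.07, NOP56, a core protein of box C/D small nucleolar particles, at -0.51 ± 0.05, and KRT8 at -0.40 ± 0.08. Of 6 ribosomal protein genes among all partners 5 were higher and 0 lower (15.7% of all genes were higher). Of 5265 other genes with a mean of 1000 or more, 1269 were higher. RPL28 was higher by 0.36 ± 0.07 and RPL17 by 0.25 ± 0.05 in the authors' deposited table.

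In 14 combinations partners were called in opposite directions, 9 of them with a readthrough name, a kind that made up 226 of all 451 combinations. Both main partners were called in 24 combinations, and in 11 of these they were called the same way. Over all genes 15.7% were called higher and 15.7% lower. C18orf32 was listed 1.99 ± 0.38 higher and RPL17-C18orf32 stood at -9.70 ± 3.91 in the authors' deposited table, and RPL17, whose start is that of the readthrough, was 0.25 ± 0.05 higher. ARPIN, an inhibitor of the Arp2/3 complex, was 0.50 ± 0.20 higher and ARPIN-AP3S2, from the same start, stood at -0.59 ± 0.24 there. AP3S2, an adaptor protein subunit with its own start downstream, was 0.79 ± 0.27 higher in the authors' deposited table. BCL2L2 stood at 0.75 ± 0.25 and BCL2L2-PABPN1 at -0.52 ± 0.20, NPEPL1 at -1.60 ± 0.58 and STX16-NPEPL1 at 0.97 ± 0.25, and the splicing factor U2AF1 at 5.04 ± 1.29 and its near-identical copy U2AF1L5 at -0.71 ± 0.13 in the authors' deposited table. KAT14, a histone acetyltransferase subunit, stood at -0.78 ± 0.20 and PET117, a mitochondrial assembly factor, at 0.42 ± 0.13 there. At an adjusted p under 0.01, 3 of the combinations remained opposite.

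The summed input of the shared regions gives another reading of the same RNA. It was centred on the median over labels. For BCL2L2 with BCL2L2-PABPN1 the input was 990 counts in control and 699 after toosendanin, a centred log2 change of -0.02. For U2AF1 with U2AF1L5 it was 6743 and 3817 counts, or -0.34, and for NPEPL1 with STX16-NPEPL1 1571 and 782 counts, or -0.52. No source used here gives how the counting split reads between partners, and the expression values of partners with shared sequence are given as uncertain for that reason. In the 11 combinations whose main partners were called the same way, 7 had both higher and 4 both lower. How reads were split is not known for these either. Among them were TRIM73 and TRIM74, at 1.08 ± 0.22 and 1.09 ± 0.15 in the authors' deposited table, with an input change of 0.90.

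**Figure D5:**
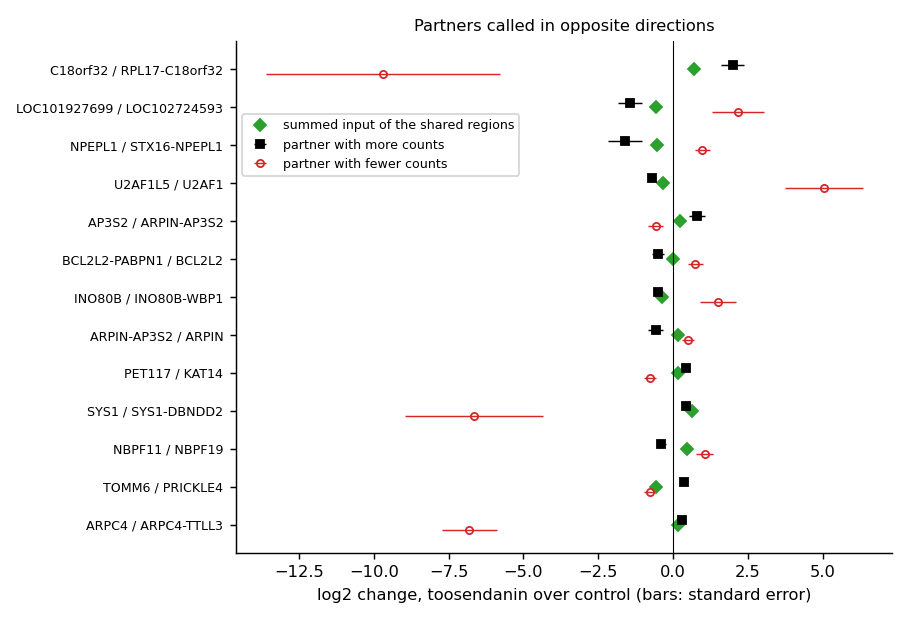
Log2 change after toosendanin (x axis) for 13 gene combinations whose partners were called in opposite directions (y axis). Black squares are the partner with more counts and red circles the partner with fewer, with standard errors from the authors' deposited table, and green diamonds are the centred summed input of the shared regions. The green diamonds lie nearer to 0 than most red circles.

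Over 368 combinations the input change differed from that of the partner with most counts by a median of 0.14 on the log2 scale, with a Pearson r of 0.69. For 10430 genes with labels of their own the median was 0.06 and r 0.87. Where 2 partners had an adjusted p, the input was nearer to the one with more counts in 216 of 274 combinations. A change from fewer counts is less precise, which by itself favours the partner with more counts. The input libraries may also have entered the expression values, so this count does not tell the source of the reads. Input and the partner with most counts were at least 1 apart in 14 combinations (3.80%). For genes with labels of their own, input and gene were that far apart in 112 (1.07%). PIGY, a subunit of the GPI anchor enzyme, and PYURF are read from 1 transcript, and they were listed at -1.55 ± 0.86 and 1.67 ± 0.81 in the authors' deposited table while their input went from 2196 to 1433 counts, a centred change of -0.13.

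Calls of m6A and of expression fell together as follows. Of the 18 regions called higher for m6A the partner with most counts was higher in expression in 7, lower in 4 and not called in 7. Of the 42 called lower it was higher in 7, lower in 13 and not called in 22. Over all genes 15.7% were higher and 15.7% lower in expression. Among other genes with a mean of 1000 or more 50.1% were called in either direction. Both calls rest on the same input libraries as far as these entered the expression comparison, and their relation was not tested.

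Genes that make, read or process such RNA were taken as lists. In the authors' deposited table, 13 of 20 genes of 3′ end formation and termination were lower and 0 higher, with a median of -0.31 against -0.000226 over all genes. Over all genes 15.7% were lower and 15.7% higher, and of other genes with a mean of 1000 or more 50.1% were called in either direction. PCF11, a termination factor, stood at -0.61 ± 0.07, CSTF2, which binds the site downstream of the cleavage, at -0.68 ± 0.11, and WDR33, which binds the poly(A) signal, at -0.38 ± 0.06 in the authors' deposited table. CPSF1 at -0.15 ± 0.06 and PABPN1 at -0.13 ± 0.18, not called, are themselves partners of shared regions. Of 21 m6A writers, erasers and readers 2 were higher and 6 lower (against 15.7% of all genes in each direction), with a median of -0.13: METTL3, the catalytic writer, at -0.36 ± 0.09, VIRMA at -0.41 ± 0.06 and the demethylase FTO at 0.18 ± 0.07 in the authors' deposited table. Of 12 genes that process double-stranded RNA 1 was higher and 2 lower, with a median of -0.01, among them DROSHA, which cuts microRNA hairpins from their hosts, at -0.70 ± 0.12 in the authors' deposited table. The 10 hepatocyte markers were present at means of 5546 to 411979, and the 3 fetal liver markers at 2729 to 158750. Of 6 fibroblast markers 4 were listed at 0, and the highest, PDGFRB, had a mean of 36.1. Of 4 endothelial markers 3 had a mean under 10, with the highest at 13.1. Of 4 blood and immune markers 3 had a mean under 10. The exception was CD68, at a mean of 1426 and 1.41 ± 0.09 higher in the authors' deposited table.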

How the data were processed

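Libraries of HepG2 cells were made with a stranded mRNA kit with unique molecular identifiers, per the labels' protocols. The submitters' processing notes name HISAT2, StringTie and DESeq without versions. Build, annotation, counting and the m6A region caller were not given in the sources, and positions of regions were not analysed here. Per the file headers, the m6A file holds read counts that the authors summed over the libraries of a condition, a log2 fold change, a p-value and an FDR. Per the file headers, the expression file holds DESeq2 results of the authors: a mean normalized count (a signal), a log2 fold change and its standard error, the Wald score and p-values.

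The foreseen test on counts per library could not be run on sums, so the deposited tests were used. Calls were taken at an FDR or adjusted p under 0.05. The error implied by the deposited m6A p-values matched the Poisson error of the sums to 1% in 910 of 912 shared regions. The deposited fold changes differ from those of the sums by -0.0953 to -0.00369 (percentiles 1 and 99), so other scalings were tried. A pseudocount of 0.5 was used in log ratios. Labels were sorted by name and by RefSeq neighbourhood (GRCh38.p14). Named regions and genes are those with the largest changes and smallest p-values among calls with at least 50 input counts in each condition, the labels with most regions or counts, labels with opposite partners, labels whose input and partner differ most, and list members, with some named after their values were seen. The shared regions, lists and rules were chosen with earlier results of these data known. Python 3.11.15, numpy 2.4.6, pandas 2.3.3, scipy 1.17.1 and matplotlib 3.10.9 were used.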

Additional observations from a re-analysis of the deposited data

How the results depend on the processing

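In place of 60 called shared regions, an FDR under 0.1 gave 93 (67 lower), an FDR under 0.01 gave 26 lower, a 2-fold limit 3 (2 higher, 1 lower), regions enriched in control 32 (2 higher), and an error widened 1.53 times 20 (6 higher, 14 lower). The limit to regions enriched in control left out by construction 16 of the 18 higher calls, which lay below 0 in control. Column totals gave 53 higher and 16 lower, centring 36 and 23. Called-lower regions that turned above 0 under column totals were that of CDC37 and MIR1181 (0.0219), a region of NEDD8 and NEDD8-MDP1 (0.0326) and the large IGF2 region (0.0464), which was also 0.00432 after centring. Both scalings move every region upward, so higher calls could not be lost. The same call under all 3 scalings, an alternative chosen after seeing the data, left 34 (16 lower). With a 2-fold limit 42 partner genes were called (23 higher, 19 lower) in place of 166. Opposite partners were 3 combinations at an adjusted p under 0.01, 3 with a 2-fold limit and 7 among genes in the upper 50% of means. Without the largest region the shared part of control IP counts was 2.82%, also chosen after seeing the data. No paired analysis was possible because the files hold sums over libraries, and leaving out a replicate was not run for the same reason. Depth limits regions under 50 control input counts, of which 19 of 233 had an FDR and 0 were called.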
